A study of Mus musculus with 6 samples.

Results

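The genes of the mitochondrial respiratory chain and ATP synthase were examined in corneal epithelium with and without Rela. Members were taken by symbol alone: every row of the deposited table whose symbol starts with Nduf, Uqcr, Atp5 or Sdha to Sdhd, or with Cox followed by a digit from 4 to 8. The rule found 97 of the 17866 protein-coding genes in the table, namely 38 complex I subunits, 4 complex II subunits, 8 complex III subunits, 18 complex IV subunits counting Ndufa4 and Ndufa4l2, 16 ATP synthase subunits, 12 assembly factors and Atp5s, which is kept apart. Subunits encoded by mitochondrial DNA were not analysed here.

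The study asked how NF-κB in epithelial stem cells of the cornea bears on repair with age, and sequenced RNA from separated corneal epithelium of C57BL/6 mice at 6 months of age. The 3 control libraries carry the genotype label WT and the other 3 the label Rela-/- (KO below), with no treatment named for either group. According to the methods of the study, the KO mice were Krt14-Cre; Rela f/f, so that Rela, which encodes the p65 subunit of NF-κB, is lost where keratin 14 drives Cre, which includes the limbus and conjunctiva as well as the cornea. Each library is a separate biological sample.

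The respiratory chain carries electrons from NADH, through complex I, and from succinate, through complex II, to ubiquinone, then through complex III and cytochrome c to complex IV, which reduces oxygen. Complexes I, III and IV pump protons across the inner mitochondrial membrane, and ATP synthase lets them flow back to make ATP. Complex II pumps none, has no subunit from mitochondrial DNA and is also the succinate dehydrogenase of the tricarboxylic acid cycle.

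Several of these genes are known targets of nuclear respiratory factor 1 (NRF1) and of GABP, a factor of the ETS family. The promoters of a few members are shown because they hold the sequence of such a factor within 120 bases of the start of a gene that rose in KO, and that of Sdha because it is the member that fell. Each is the 120 bases before the RefSeq transcription start on the gene's own strand in GRCm38.p6, with a match in capitals, for NRF1 the core GCATGCG of its site and for ETS the core CCGGAAG, or their reverse complements.
Uqcr11 (chr10:80406822-80406941, minus strand, ETS): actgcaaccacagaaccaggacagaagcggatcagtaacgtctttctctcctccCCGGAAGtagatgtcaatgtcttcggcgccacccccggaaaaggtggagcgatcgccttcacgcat
Uqcrh (chr4:116075071-116075190, minus strand, ETS): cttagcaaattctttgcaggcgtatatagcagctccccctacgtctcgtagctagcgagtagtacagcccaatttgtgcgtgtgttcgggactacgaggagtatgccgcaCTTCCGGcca
Cox6a1 (chr5:115348959-115349078, minus strand, ETS): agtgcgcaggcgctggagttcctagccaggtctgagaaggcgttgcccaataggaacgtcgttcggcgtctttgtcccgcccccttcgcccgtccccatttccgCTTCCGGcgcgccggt
Atp5k (chr5:108434400-108434519, minus strand, NRF1): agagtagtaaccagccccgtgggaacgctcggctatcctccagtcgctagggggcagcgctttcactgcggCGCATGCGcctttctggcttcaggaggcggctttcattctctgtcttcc
Ndufaf4 (chr4:24897963-24898082, plus strand, NRF1): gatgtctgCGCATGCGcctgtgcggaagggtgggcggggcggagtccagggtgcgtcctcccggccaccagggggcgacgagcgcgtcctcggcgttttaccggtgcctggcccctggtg
Sdha (chr13:74350241-74350360, minus strand, no match): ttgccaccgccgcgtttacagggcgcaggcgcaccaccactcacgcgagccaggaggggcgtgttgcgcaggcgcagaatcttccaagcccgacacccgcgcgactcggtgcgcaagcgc

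In the 250 bases before the start, on either strand, the ETS letters were found in 16 of the 79 members with a RefSeq promoter (20.3%) and in 7.83% of the 27025 genes with a promoter in the RefSeq set, which is wider than the genes tested here. The NRF1 letters were in 10 of the 79 (12.7%), among them Atp5g2, Atp5k, Cox6a1 and Ndufaf4, and in 3.43% of all genes. The core AAGATGG of the YY1 site was found in 1 of the 79, Atp5j, and in 5.18% of all genes. The first letters GGGACTT of a common form of the κB site, which NF-κB binds, were in 7 of the 79 (8.86%) and in 5.33% of all genes. Members that rose in KO held the ETS letters in 12 of 59 promoters and the NRF1 letters in 8, and members with no call held them in 4 and 2 of 17. The κB letters were in 4 of the 59 that rose (6.78%) and in 3 of the 17 with no call (17.65%). These matches describe the letters of short windows, and no binding was measured.

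The libraries held between 20158404 and 20880347 estimated counts. Rela had 1871, 1844 and 1855 counts in WT against 318, 223 and 313 in KO, a change on the log2 scale of -2.60 (± 0.14 SE at an edgeR adjusted p of 2.74e-06). The 10 markers of corneal epithelium summed to between 94688 and 99108 CPM (normalised read counts, scaled by library total and TMM) in WT and between 33703 and 37817 CPM in KO, and the 5 conjunctival markers to between 1873 and 2899 CPM in WT and between 52180 and 66897 CPM in KO. Of the 10 corneal markers 7 were called lower and 1 higher, and all 5 conjunctival markers were called higher, beside 31.8% higher and 30.2% lower among all genes. The corneal list includes Krt14, whose Cre also marked conjunctiva and skin in the study. In KO the sum of the 5 conjunctival markers was above that of the 10 corneal markers, but the lists are unlike and no epidermal markers were summed. The study reports that the central cornea of KO mice at this age carried an epidermal-like epithelium with K1 in place of K12. Markers of leukocytes lay between 295 and 348 CPM in WT and between 452 and 882 CPM in KO, those of fibroblasts between 13.4 and 16.9 CPM in WT and between 19.2 and 32.4 CPM in KO, and those of endothelium at most at 0.237 CPM in WT and 0.896 CPM in KO. Of 10 tested leukocyte markers 8 were called higher and 1 lower, and of 6 tested fibroblast markers 5 were called higher and 1 lower. Muscle markers, of which 6 of 14 were at 3 counts or fewer in every library and the 3 tested were called higher, lay between 1.28 and 2.02 CPM in WT and between 4.42 and 5.88 CPM in KO. Melanocyte markers lay between 7.50 and 9.70 CPM in WT and between 5.31 and 5.34 CPM in KO. The part of these shifts in the differences below was not tested, and fewer cells of a type cannot be told apart from less RNA per cell.

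Most subunit genes were higher in KO. Of the 93 members that passed the filter on low counts, 73 rose and 1 fell at an adjusted p below 0.05 (edgeR quasi-likelihood test, adjusted over 13305 genes), and 19 had no call. Among all genes tested, 31.8% rose and 30.2% fell. The median log2 fold change of the members was 0.62, a 1.54-fold rise, and that of all genes 0.01. All 3 KO libraries lay above all 3 WT libraries for 76 members and below them for 5, and the groups overlapped for 12, where 34.8% and 33.9% of all genes did not overlap in the same directions. At the threshold of the study, a fold change of at least 2 with an adjusted p of 0.001 or less, 19 members rose and 0 fell, beside 11.6% and 8.24% of all genes.

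The count and direction of these calls depended on whether gene length was taken into account. The members are short genes, with a median effective length of 693 bases against 2859 bases for all genes tested. Among all 945 tested genes shorter than 1000 bases, 61.6% rose in KO, and among the 12104 longer ones 29.6% rose. Genes shorter than 1000 bases took between 6.97% and 7.52% of the counts in WT libraries and between 11.3% and 12.2% in KO libraries. When the relation of count to length was removed within each library by an offset, 24 members rose, 23 fell and the median log2 fold change was -0.03, while 30.5% of all genes rose and 29.8% fell. All 24 had also risen without the offset, and 11 members went from higher to lower. Short genes in general did much the same with the offset. As the offset is built to remove what goes with length, the median of short genes is largely set by its construction. Of the 945 tested genes shorter than 1000 bases, 223 rose and 326 fell, at a median of -0.10. Of the 65 members that short, 10 rose and 17 fell, at a median of -0.09. Whether the relation to length is technical or belongs to the tissue cannot be told apart in these libraries, so the value with the offset is given beside the members described in most detail.

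**Figure D1:**
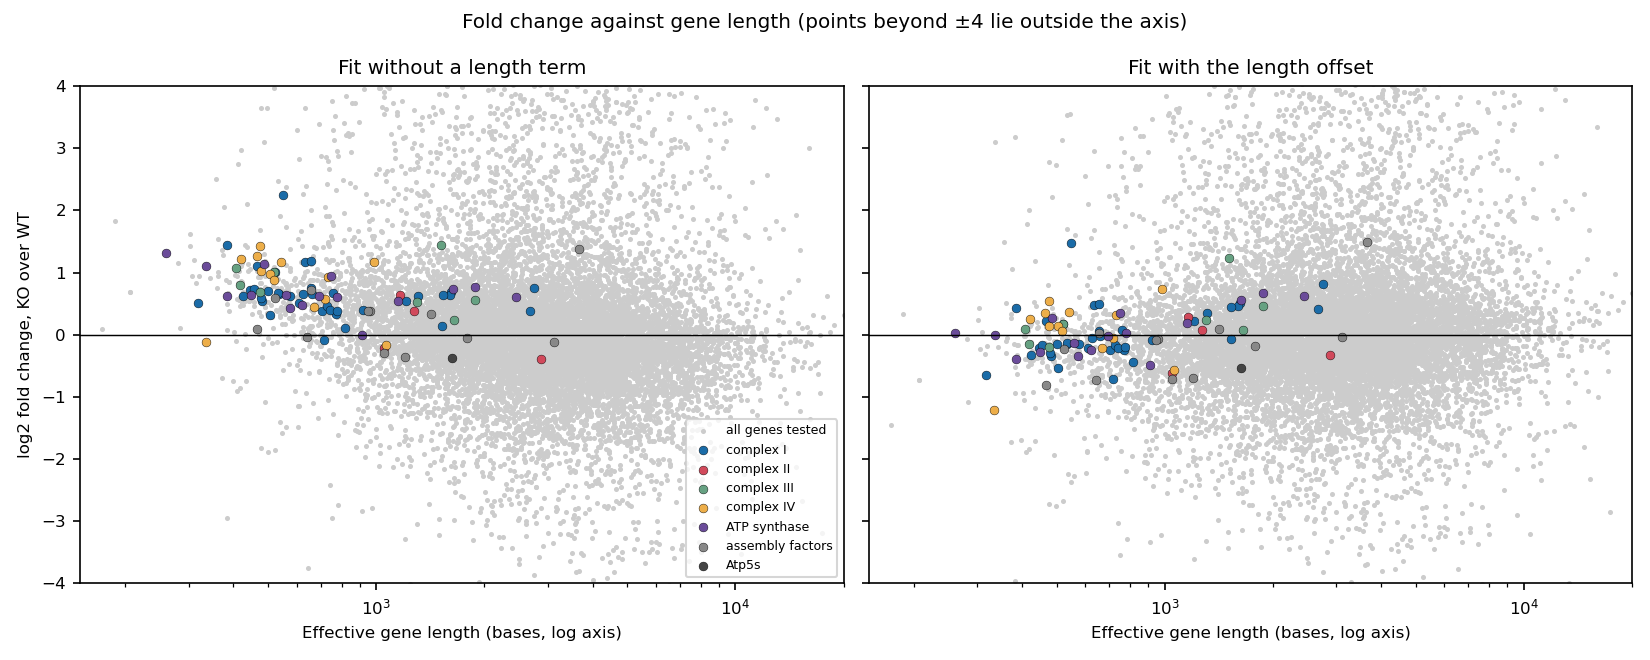
Fitted log2 fold change (KO over WT) against effective gene length in bases on a log axis, without (left) and with (right) the length offset. Grey points are all genes tested and coloured points the members, which sit mostly above 0 on the left below 1000 bases and around 0 on the right.

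The 65 tested members under 1000 bases held 55 of the rises (84.6% higher) and no fall. Among all genes that short, 61.6% rose and 9.84% fell. The 28 members of at least 1000 bases held 18 rises and the fall of Sdha, 64.3% higher against 29.6% of all genes of that length, with a median log2 fold change of 0.53 that was 0.23 with the offset. The longer members carried a median above that of all genes in both fits, and the shorter ones, at 0.66 without and -0.09 with the offset, in one of them. Across the 93 members, Spearman's rho of fold change with length was -0.38, a description over genes that share the same 6 libraries.

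The members together took 0.513%, 0.548% and 0.544% of all counts in WT and 0.732%, 0.837% and 0.808% in KO. The ratio of the group means was 1.48, and 1.33 when TPM, which is per length and scaled to the same total in every library, was summed in place of counts. The FPKM of all genes, before such scaling, summed to between 458582 and 477306 in WT and between 542098 and 558392 in KO. Complex IV had the highest ratio of counts, 1.85, followed by complex III with 1.47, ATP synthase with 1.46 and complex I with 1.38. The assembly factors had a ratio of 1.06 and complex II one of 0.88. On the TPM scale complex IV took 0.385% ± 0.021 (SD, n = 3) of the total in WT and 0.621% ± 0.037 in KO, with no overlap between the groups.

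**Figure D2:**
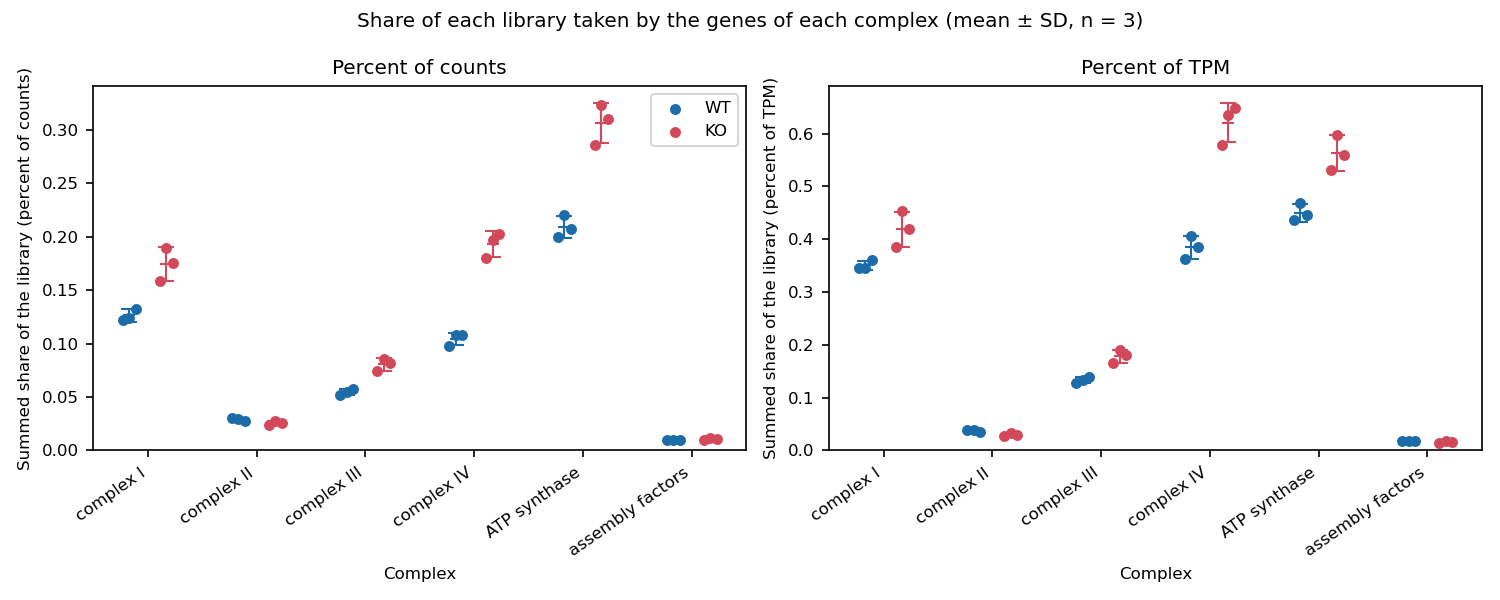
Share of each library taken by the genes of each complex, in percent of counts (left) and percent of TPM (right). Points are libraries and bars the mean ± SD (n = 3); KO lies above WT in both panels for complexes I, III and IV and for ATP synthase, and the mean of complex II is lower in KO in both.

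Complex I takes electrons from NADH and is the largest complex of the chain. Of its 38 members, 34 rose (89.5%) and none fell, beside 31.8% and 30.2% of all genes, with a median log2 fold change of 0.64. At the threshold of the study 5 of the 38 rose and none fell, beside 11.6% and 8.24% of all genes. With the length offset 9 rose and 9 fell, beside 30.5% and 29.8% of all genes. The largest rise with a call was that of Ndufc1, an accessory subunit of the membrane arm, with 126, 165 and 189 counts in WT against 345, 507 and 366 in KO. The fitted log2 fold change was 1.45 (± 0.20 SE at an edgeR adjusted p of 0.000395) and 0.43 with the offset, which did not pass the test (adjusted p = 0.0689). The KO libraries lay well above the WT libraries here, and the partner of Ndufc1 in the membrane arm, Ndufc2, did the same with 430, 518 and 550 counts in WT against 952, 1119 and 1078 in KO. Ndufc2 kept its call with the offset (log2 fold change 1.18 without and 0.50 with it, adjusted p = 0.00347), as did Ndufb6, an accessory subunit of the same arm (1.18 and 0.48). Ndufa1 and Ndufa5, 2 further accessory subunits at the threshold of the study, had log2 fold changes of 1.11 and 1.00 that became 0.21 and 0.18 with the offset and lost their calls.

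The core subunits of the matrix arm, which hold the flavin and iron-sulfur clusters that pass the electrons on, include longer genes. Ndufs1, the largest subunit of that arm, had 945, 1007 and 957 counts in WT against 1308, 1759.6 and 1469 in KO. The fitted log2 fold change was 0.75 (± 0.12 SE at an edgeR adjusted p of 0.000682), and 0.81 with the offset. Ndufv1, which binds NADH, and Ndufv2 rose by 0.64 and 0.65 on the log2 scale, and by 0.47 and 0.45 with the offset. These 3 core subunits were each called in both fits. Ndufs7 and Ndufs8, 2 iron-sulfur subunits near the ubiquinone site, had log2 fold changes of 0.39 and 0.38, or -0.21 and -0.20 with the offset. Ndufs7 kept its call in 11 of the 18 alternative fits, and lost it when WT replicate 1, WT replicate 2 or KO replicate 3 was left out. Ndufs8, whose groups overlapped, kept its call in 5 of 18, and lost it under the replicate block and when WT replicate 1, WT replicate 2, KO replicate 2 or KO replicate 3 was left out.

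Over both groups together, the levels per length within complex I were led by Ndufb9 and Ndufa3, 2 accessory subunits, although in WT alone Ndufb11, with 86.9 FPKM, stood above Ndufb9. Ndufb9 had 78.2 ± 5.60 FPKM in WT and 115 ± 15.4 FPKM in KO (SD, n = 3), and Ndufa3 had 88.1 ± 4.59 and 117 ± 19.5 FPKM. Ndufb9 and Ndufa3 rose by 0.66 and 0.51 on the log2 scale of counts, whereas with the offset Ndufb9 was at -0.05 and Ndufa3 fell to -0.65 (adjusted p = 0.000807). The 4 members with no call were Ndufa8 (-0.08), Ndufv3 (0.11), Ndufs4 (0.14) and Ndufa11b. With the offset Ndufa8 was at -0.71 (adjusted p = 0.000119) and Ndufv3 at -0.44 (adjusted p = 0.0027), both called lower, and Ndufs4 was at -0.06 without a call. The FPKM of Ndufv3 went the other way, from 54.3 ± 8.02 in WT to 76.7 ± 6.18 in KO (SD, n = 3), with no overlap. FPKM divides by an effective length that can differ between libraries, whereas the offset used a single length for each gene. Why the effective length of Ndufv3 differed between the groups was not tested. Ndufa11b had at most 45.0 counts in any library and shares reads with its near copy Ndufa11, so its log2 fold change of 2.25 (± 0.90 SE at an adjusted p of 0.0561) is uncertain, as is the split between Ndufb4 and Ndufb4c.

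In the fit without the offset, complex II was the one complex with calls in both directions. Sdha, the flavoprotein that oxidizes succinate, had 3300, 3222 and 3034 counts in WT against 2109, 2312 and 2341 in KO. Every KO library lay below every WT library, and on the log2 scale the change was -0.39 (± 0.08 SE at an edgeR adjusted p of 0.00305), 76.3% of the WT level. With the offset it was -0.32, still called. Sdhb, the iron-sulfur subunit that takes the electrons from Sdha, had 1536, 1471 and 1389 counts in WT against 993, 1400 and 1126 in KO, where 1 KO library lay within the WT range. Its log2 fold change of -0.21 did not pass the test (adjusted p = 0.174), but with the offset it fell by 0.62 (adjusted p = 0.00222). The value rested on single libraries, being -0.36 and called lower without KO replicate 2 (adjusted p = 0.0167) and -0.11 without KO replicate 1.

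The membrane anchors of complex II went the other way. Sdhc had 688, 762 and 652 counts in WT against 1082, 949 and 987 in KO, with no overlap and a log2 fold change of 0.63 (± 0.10 SE at an adjusted p of 0.000753), or 0.29 with the offset (adjusted p = 0.0456). Sdhd had 701, 754 and 683 counts in WT against 726, 907 and 943 in KO, where the lowest KO library was within the WT counts before scaling and above them after it. Its log2 fold change of 0.38 (± 0.11 SE at an adjusted p of 0.0192) kept its call in 9 of the 18 alternative fits. The call was lost with the offset, with total counts and in the fits on FPKM and TPM. It was also lost when WT replicate 1, KO replicate 2 or KO replicate 3 was left out.

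Complex III passes electrons from ubiquinol to cytochrome c. All 8 of its members rose, beside 31.8% of all genes, with a median log2 fold change of 0.74. At the threshold of the study 3 rose, beside 11.6% of all genes. With the length offset 2 rose and none fell, beside 30.5% and 29.8% of all genes. Uqcrq, a small subunit that sits beside cytochrome b, had 594, 779 and 735 counts in WT against 1535, 1943 and 1815 in KO. The lowest KO library was above the highest WT library, for a log2 fold change of 1.43 (± 0.14 SE at an edgeR adjusted p of 4.74e-05) and of 1.23 with the offset. Uqcrc2, a core protein of the matrix side, was the other member called in both fits, at 0.56 and 0.46.

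Uqcr11 and Uqcrh, 2 short genes whose promoters are printed above with an ETS match, doubled in KO. Uqcr11 had 676, 713 and 766 counts in WT against 1324, 1505 and 1392 in KO, and Uqcrh, the hinge protein that binds cytochrome c1, had 1029, 1015 and 1156 in WT against 1803, 2113 and 2040 in KO. Their log2 fold changes of 1.08 and 1.00 became 0.10 and 0.18 with the offset, without a call. Uqcrb, the complex III gene of highest level per length, went from 147 ± 23.1 to 221 ± 29.6 FPKM (SD, n = 3). Its log2 fold change of 0.68 turned to -0.20 with the offset, without a call. The Rieske iron-sulfur protein Uqcrfs1 rose by 0.53, and was at 0.24 with the offset without a call. The core protein Uqcrc1 rose by 0.24 (0.07 with the offset, without a call), the smallest rise of the complex. Uqcrc1 kept its call in 7 of the 18 alternative fits. The call was also lost with total counts, without the filter and in the fits on FPKM and TPM. Leaving out WT replicate 1, WT replicate 2, KO replicate 2 or KO replicate 3 lost it as well.

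**Figure D3:**
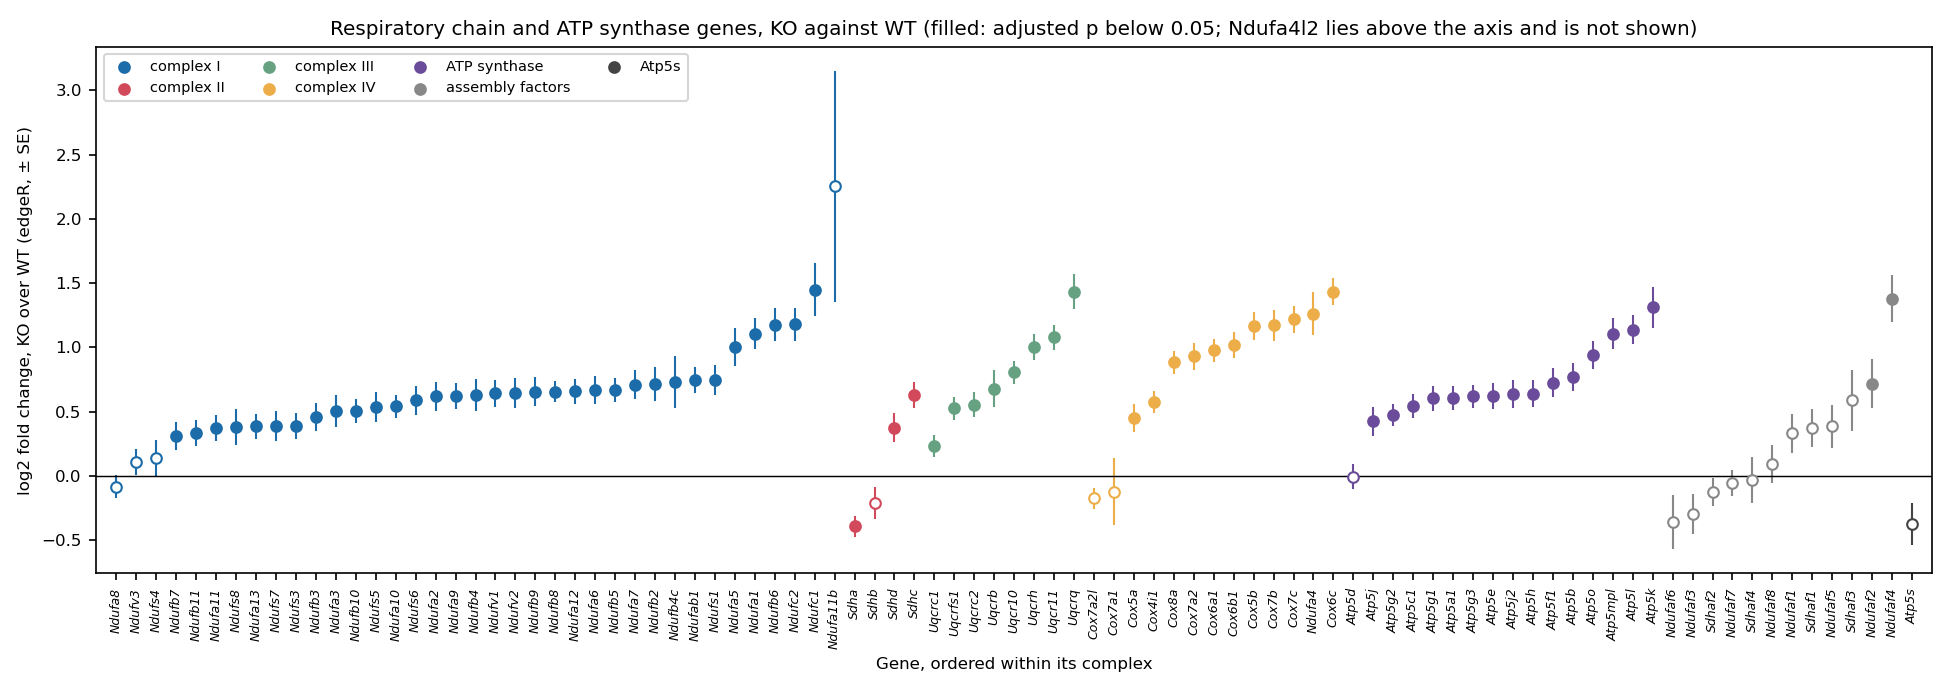
Log2 fold change (KO over WT, edgeR, without a length offset) of 91 tested members, ordered within each complex, with bars of ± SE and filled points at an adjusted p below 0.05. Nearly all points of complexes I, III and IV and of ATP synthase are above 0, complex II spans -0.39 to 0.63, and 10 of the 12 assembly factors are open points.

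Complex IV, cytochrome c oxidase, hands the electrons to oxygen, and its nuclear genes encode the small subunits around a core from mitochondrial DNA. Of 14 tested members 12 rose (85.7%) and none fell, beside 31.8% and 30.2% of all genes. The median log2 fold change was 1.00, the highest of the complexes. At the threshold of the study 7 rose and none fell, beside 11.6% and 8.24% of all genes. With the length offset 6 rose and 2 fell, at a median of 0.20, beside 30.5% and 29.8% of all genes. Cox6c had 853, 866 and 830 counts in WT against 1878, 2400 and 2104 in KO, for a log2 fold change of 1.43 (± 0.10 SE at an edgeR adjusted p of 1.21e-05). Cox5b, which binds zinc on the matrix side, had 1100, 1340 and 1353 in WT against 2490, 2634 and 2768 in KO and a log2 fold change of 1.16. For both genes the KO libraries stood clear of WT, and the calls held with the offset, at 0.55 for Cox6c and 0.37 for Cox5b. Cox7b, Cox7c and Cox7a2 were also called in both fits, at 1.17, 1.22 and 0.93 without and 0.73, 0.25 and 0.32 with the offset.

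The remaining subunits of complex IV lost their calls with the offset. Cox6b1 and Cox6a1 had log2 fold changes of 1.02 and 0.98, which became 0.14 and 0.14. Cox8a and Cox4i1 had 0.88 and 0.58, which became 0.06 and -0.05, and Cox5a had 0.45, which became -0.21. The members with no call were Cox7a1 and Cox7a2l, a factor that joins complexes III and IV into supercomplexes. Cox7a2l had 3117, 2913 and 3181 counts in WT against 2520, 2482 and 2571 in KO, a change on the log2 scale of -0.17 (adjusted p = 0.092) that was -0.57 and called lower with the offset.

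Ndufa4l2 had the largest change of all members. It encodes a relative of Ndufa4 and is known as a target of hypoxia-inducible factor. Its counts were 3, 18 and 4 in WT against 2968, 1101 and 2201 in KO, that is 0.388 ± 0.390 CPM against 105 ± 47.7 CPM (SD, n = 3). The KO libraries varied among themselves and the WT libraries were near the floor of 3 counts, yet the groups were far apart, for a log2 fold change of 8.06 (± 0.58 SE at an edgeR adjusted p of 1.09e-05), which ranged from 6.18 to 9.29 over the 18 alternative fits. Ndufa4, first assigned to complex I and now to complex IV, was the member of highest level per length, 440 ± 83.9 FPKM in WT and 988 ± 154 FPKM in KO. Its counts of 3511, 5117 and 4104 in WT against 7872, 9685 and 10812 in KO gave a log2 fold change of 1.26 (± 0.17 SE at an adjusted p of 0.000293), and 0.36 with the offset, without a call (adjusted p = 0.0756).

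Several complex IV subunits have a second gene used mainly in muscle, lung or testis. Of these second genes 4 were at 10 counts or fewer in every library. Cox6a2, the muscle form, had 1 count in 1 KO library and 0 elsewhere, and Cox8b, also a muscle form, 1 count in 1 WT library. Cox4i2, the lung form, had 1, 0 and 3 counts in WT against 6, 3.06 and 5 in KO. Cox6b2, the testis form, had 9, 4 and 10 counts in WT against 2, 0 and 2 in KO, and these 4 genes did not pass the filter. Cox7a1, a muscle form, had 20, 20 and 21 counts in WT against 18, 16 and 18 in KO, a change on the log2 scale of -0.12 (adjusted p = 0.711), and was called lower with the offset (-1.22). The widely expressed partners Cox4i1, Cox6a1, Cox6b1, Cox7a2 and Cox8a were at 51.0 to 190 FPKM in WT, and Ndufa4l2 was the one second gene that rose. Cox7b2 and Cox8c were not analysed here.

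**Figure D4:**
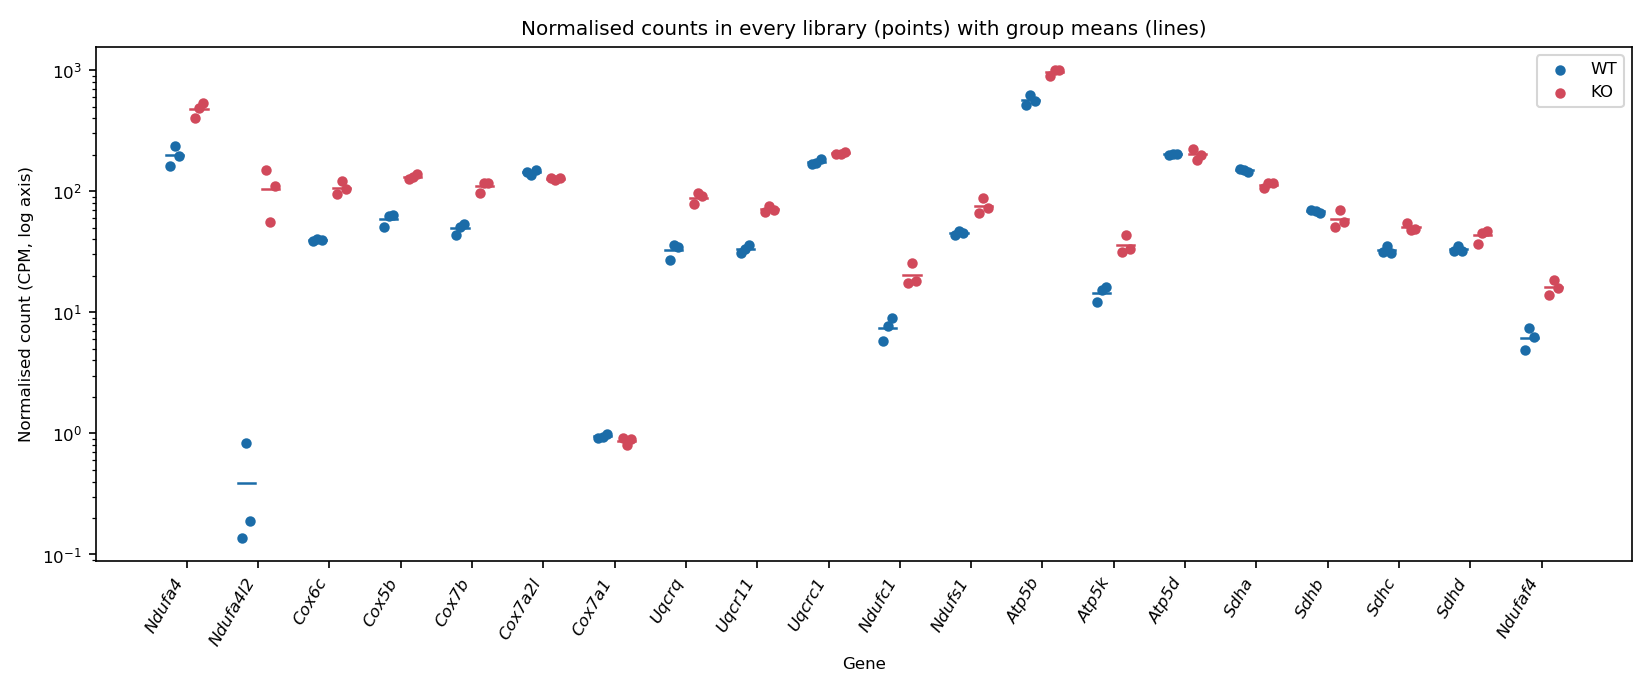
Normalised count (CPM on a log axis) of 20 members in every library, with a line at each group mean. The groups are farthest apart for Ndufa4l2, WT lies above KO for Sdha, and Cox7a1 stays below 1 CPM in all 6 libraries.

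ATP synthase consists of a catalytic head, a rotor and a stalk that holds the head in place. Of its 16 members 15 rose and none fell, beside 31.8% and 30.2% of all genes, with a median log2 fold change of 0.63. At the threshold of the study 3 rose and none fell, beside 11.6% and 8.24% of all genes. With the length offset 5 rose and 5 fell, beside 30.5% and 29.8% of all genes. Atp5b, the catalytic beta subunit, had 11275, 13268 and 11734 counts in WT against 17685, 19800 and 19962 in KO, or 310 ± 26.7 FPKM and 495 ± 36.3 FPKM (SD, n = 3). The KO libraries were all higher, for a log2 fold change of 0.77 (± 0.11 SE at an edgeR adjusted p of 0.000452), and 0.67 with the offset. Atp5a1, the alpha subunit, had 7732, 8388 and 7456 counts in WT against 10931, 10927 and 11402 in KO, a change on the log2 scale of 0.61 that was 0.62 with the offset. Both head subunits are longer genes, and both were called in each fit, together with the stalk subunits Atp5f1 (0.73 and 0.56) and Atp5o (0.94 and 0.34) and the membrane subunit Atp5l (1.14 and 0.27).

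Of the 3 ATP synthase members at the threshold of the study, Atp5k, Atp5l and Atp5mpl, all small membrane subunits, Atp5l kept its call with the offset. Atp5k, subunit e, which takes part in joining the enzyme into dimers and whose promoter is printed above with an NRF1 match, had 268, 327 and 340 counts in WT against 617, 871 and 668 in KO. The fitted log2 fold change was 1.31 (± 0.16 SE at an adjusted p of 0.000189), and 0.03 with the offset. Atp5mpl went from 1.11 to 0.0007 in the same way. With an effective length of 260 bases Atp5k is the shortest member tested.

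Subunit c, which forms the ring of the rotor, is encoded by 3 genes whose mature protein is the same and whose targeting sequences differ. Atp5g1 had 1074, 1259 and 1245 counts in WT against 1597, 1766 and 1683 in KO, Atp5g2 had 2596, 2837 and 2535 against 3254, 3529 and 3484, and Atp5g3 had 1531, 1763 and 1621 against 2270, 2456 and 2284. All 3 KO libraries were higher for each, by 0.60, 0.47 and 0.62 on the log2 scale. With the offset Atp5g1 and Atp5g3 were at 0.03 and -0.03, and Atp5g2, at -0.24, was called lower. Atp5g2 had the highest level per length of the 3, 206 ± 12.6 FPKM in WT and 267 ± 14.6 FPKM in KO.

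The member of ATP synthase without a call was Atp5d, the delta subunit of the rotor stalk. It had 4358, 4351 and 4308 counts in WT against 4412, 3637 and 3984 in KO, so the groups overlapped and on the log2 scale the change was 0.00 (± 0.10 SE at an adjusted p of 0.976), while the offset gave -0.49 and a call. Atp5s, a soluble factor once purified with ATP synthase, had 168, 165 and 197 counts in WT against 106, 134 and 140 in KO. The KO libraries were all lower, but its log2 fold change of -0.37 did not pass the test (adjusted p = 0.075), and with the offset it was -0.54, called lower.

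The assembly factors help to build the complexes and are not part of them once built. Of 12 tested, 2 rose (16.7%) and none fell, below the 31.8% and 30.2% of all genes, with a median log2 fold change of 0.21. With the offset 1 rose and 4 fell, beside 30.5% and 29.8% of all genes. Ndufaf4, which acts on complex I, had 107, 158 and 132 counts in WT against 272, 371 and 316 in KO. Its KO libraries were all higher, for a log2 fold change of 1.38 (± 0.18 SE at an edgeR adjusted p of 0.000277), and 1.49 with the offset, and it was the longest member tested, at 3667 bases. Ndufaf2 rose by 0.72 (adjusted p = 0.0102) and was at 0.03 with the offset. The other 10 lay between -0.36 (Ndufaf6) and 0.59 (Sdhaf3) with no call, and the 4 Sdhaf genes, which serve complex II, had log2 fold changes of 0.38, -0.12, 0.59 and -0.03. With the offset Sdhaf4, at -0.72, was called lower, as were Ndufaf3, Ndufaf6 and Ndufaf8. Ndufaf8, among the most abundant of the group per length, had 16.4 ± 0.600 FPKM in WT and 16.4 ± 2.45 FPKM in KO.

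Across all 18 alternative fits, 21 of the 74 calls held. Among them were Ndufa9, Ndufb6, Ndufc2, Ndufs1, Ndufv1 and Ndufv2 of complex I, Sdha of complex II, Uqcrq of complex III, Cox5b, Cox6c, Cox7a2, Cox7b, Cox7c and Ndufa4l2 of complex IV, Atp5a1, Atp5b, Atp5f1, Atp5l and Atp5o of ATP synthase, and the assembly factor Ndufaf4. Of the 21, Sdha fell and the others rose.

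Genes that work beside the complexes were counted in the same way. Of 12 tested electron carriers and further subunits 8 rose and 1 fell, beside 31.8% and 30.2% of all genes, with a median log2 fold change of 0.55. The fit with the offset gave 6 rises and 1 fall, beside 30.5% and 29.8% of all genes. Sqor, which feeds electrons from sulfide into ubiquinone, had 25, 25 and 22 counts in WT against 118, 206 and 173 in KO (log2 fold change 2.89 ± 0.25 SE). Usmg5, a small subunit of ATP synthase dimers, rose by 1.21 and was at 0.05 with the offset, and Prodh, proline dehydrogenase, rose by 1.15. With the offset Sqor and Prodh kept their calls, at 2.73 and 1.15. Gpd2, the glycerol phosphate dehydrogenase of the inner membrane, fell by 0.43 (adjusted p = 0.0133) and lost its call with the offset.

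Of 43 tested assembly factors whose symbols lie outside the rule, 15 rose (34.9%) and 8 fell, near the 31.8% and 30.2% of all genes or below them. Their median log2 fold change was 0.10. The fit with the offset gave 11 rises and 15 falls, beside 30.5% and 29.8% of all genes. Higd1a, known to be induced by low oxygen, had 217, 306 and 310 counts in WT against 1095, 1154 and 1145 in KO (log2 fold change 2.13 ± 0.15 SE). Sco2, which delivers copper to complex IV, rose by 1.43, and Cmc2 by 1.12. The 3 kept their calls with the offset, at 2.04, 1.07 and 0.89. The largest falls were those of Atpaf1, a chaperone of the ATP synthase head, at -0.92, Nubpl, which supplies iron-sulfur clusters to complex I, at -0.77, and Bcs1l, which inserts the Rieske protein into complex III, at -0.62. These 3 were also called lower with the offset.

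The tricarboxylic acid cycle and pyruvate dehydrogenase, which supply NADH and succinate, had 9 rises and 1 fall among 17 genes tested, with a median log2 fold change of 0.26, beside 31.8% and 30.2% of all genes. With the offset there were 9 rises and 1 fall at a median of 0.27, beside 30.5% and 29.8% of all genes. Of these rises 8 were the same genes. Mdh2, malate dehydrogenase, rose by 0.82, Fh1, fumarase, by 0.76 and Sucla2, a subunit of succinyl-CoA synthetase, by 0.71, while Pdhx of the pyruvate dehydrogenase complex fell by 0.82. These 4 genes kept their calls with the offset. Proteins of mitochondrial membranes and import had 14 rises and 2 falls among 22 genes, beside 31.8% and 30.2% of all genes. They had 11 rises and 2 falls with the offset, beside 30.5% and 29.8% of all genes. Hspd1, the mitochondrial chaperonin, rose by 1.15, the prohibitin Phb2 by 0.79 and Immt of the cristae junctions by 0.76. Mfn2, which fuses outer membranes, was at -0.87 and the adenine nucleotide carrier Slc25a4 at -0.67, both called lower. These 5 genes kept their calls with the offset.

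The regulators of mitochondrial biogenesis gave 4 rises (22.2%) and 3 falls among 18 genes tested, below the 31.8% and 30.2% of all genes. Their median log2 fold change was 0.07. They gave 6 rises and 4 falls with the offset, beside 30.5% and 29.8% of all genes. The coactivator Ppargc1a had 40, 36.8 and 55.7 counts in WT against 20.7, 9.44 and 7 in KO (log2 fold change -1.73 ± 0.42 SE, adjusted p = 0.00714). Its relatives Ppargc1b and Pprc1 rose by 1.32 and 1.05, as did Tfb2m, a factor of mitochondrial transcription, by 0.54. The nuclear receptor gene Esrra fell by 0.40 and Yy1 by 0.31. These 6 genes kept their calls with the offset. Nrf1 and Gabpa, whose factors bind the letters searched for above, had log2 fold changes of 0.15 and 0.10 with no call (adjusted p = 0.164 and 0.284), and with the offset both were called higher, at 0.24 and 0.29.

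Of 13 tested genes known to respond to low oxygen, Ndufa4l2 and Higd1a among them, 9 rose and 1 fell, beside 31.8% and 30.2% of all genes, with a median log2 fold change of 1.51. With the offset 9 rose and 1 fell as well, at a median of 1.06, beside 30.5% and 29.8% of all genes. Of these rises 8 were the same genes. Bnip3, a receptor for the removal of mitochondria, had 47, 113 and 46 counts in WT against 903, 610 and 1232 in KO (log2 fold change 3.84 ± 0.39 SE), and Adm, which encodes adrenomedullin, rose by 2.27. Egln3, a prolyl hydroxylase of the same response, had 24117, 22082 and 24798 counts in WT against 8345, 6739 and 10172 in KO and fell by 1.38 on the log2 scale. Bnip3, Adm and Egln3 kept their calls with the offset. Oxygen was not measured.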

How the data were processed

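RNA of separated corneal epithelium was sequenced in 3 WT and 3 KO libraries (titles and genotype labels), of 20158404 to 20880347 counts. By the methods of the study, ribosomal RNA was depleted and single-end reads from a BGI instrument were filtered with SOAPnuke, whereas the labels name an Illumina kit. The submitters' processing notes list Bowtie2 2.2.5, RSEM 1.2.12 and mm9, but the table's coordinates are those of GRCm38. The authors deposited RSEM estimated counts, which share reads between similar genes, so 17 of the 97 members had counts that are not whole. The FPKM and TPM values deposited by the authors scale counts by effective length. The authors also deposited their own fold changes and p-values, which were not used.

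The members, lists and tests were chosen with earlier results of these data known. After rounding of the estimated counts, edgeR 4.0.16 (R 4.3.3) was run with TMM, filterByExpr, glmQLFit and glmQLFTest. Genotype was the single term and p-values were adjusted over 13305 genes by Benjamini-Hochberg. For the length offset, a loess curve (span 0.4) of log count on log effective length, as implied by counts and FPKM, was fitted per library. The division at 1000 bases was chosen after seeing the data. Genes were named where they led their class in FPKM, rise or fall, reached the study threshold, belonged to complex II, an isoform pair or subunit c, or led a list. Members without a call, core subunits, calls held in every fit, and Nrf1 and Gabpa were singled out after their values were seen. The promoters printed were picked among members with a match after their changes were seen, and the motifs were shortened to 7 letters after a first search with longer forms.

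Other fits used RLE factors, DESeq2 1.42.0, total counts, no filter, a mean count of at least 50, limma-trend 3.58.1 of log2(FPKM + 1) or log2(FPKM + 0.1), the length offset, the replicate number as a block with and without it, and each library left out in turn. A GC offset (longest GENCODE M21 transcript, 98.9% of genes) and limma on log2(TPM + 1) were added after seeing the data. The scripts were tested on simulated data. Markers of testis germ cells were not analysed here, and the values of 1 member are not reported here. Strand use is not given in the sources used here, so overlapping genes may share reads, and counts of PCR reads are not independent molecules.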

Additional observations from a re-analysis of the deposited data

How the results depend on the processing

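The count of members called higher was 73 and lay between 67 and 74 under RLE factors, DESeq2, total counts, no filter, a mean count of at least 50, both FPKM fits, the GC offset and each library left out. It was 50 with limma on log2(TPM + 1), where the median of all genes shifted to -0.28 and 30.3% of all calls were higher in place of 51.3%. With total counts, 44.4% of calls over all genes were higher. The length offset gave 24 higher, 23 lower and a median of -0.025, and with the replicate block as well 23 higher, 21 lower and a median of -0.024. Members called lower, 1 at first, were 3 with total counts, 2 without a filter, 4 in each FPKM fit, 3 with the GC offset, 12 with TPM and 1 to 2 when a library was left out (2 without KO replicate 2). The median was 0.53 with total counts, 0.52 in both FPKM fits and 0.28 with TPM. Rises at the study threshold, 19 at first, were 12 on log2(FPKM + 1), 3 with the length offset, 3 with the block and length offset, 4 with TPM and 12 to 19 when a library was left out (12 without WT replicate 1). The share of the members, with a ratio of 1.48 in counts, had 1.33 in TPM.

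With the length offset, and then with the block added, log2 fold changes turned to -0.24 and -0.24 for Atp5g2, -0.025 and -0.024 for Atp5g3, -0.046 and -0.045 for Cox4i1, -0.65 and -0.65 for Ndufa3, -0.051 and -0.053 for Ndufb9, -0.20 and -0.19 for Uqcrb, and -0.81 and -0.81 for Ndufaf8, which was also at -0.013 on log2(FPKM + 1) and -0.014 on log2(FPKM + 0.1) and at -0.25 with TPM. The offset's own construction removes what goes with length. The cause of the other shifts was not tested.

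The titles do not say whether replicate numbers pair the samples. Deviations of same-numbered libraries correlated at 0.065, -0.022 and 0.064, and those of differently numbered ones at -0.168 to 0.099. With 3 libraries a group these values cannot show whether the samples are paired. The replicate block alone gave 72 higher, 1 lower and a median of 0.62. With 3 libraries a group, p-values rest on the spread between these samples, and low genes such as Cox4i2 could not be tested at this depth.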
